A study of Mus musculus with 4 samples.

Results

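The AP-1 and immediate-early factors described here are 10 genes: Fos, Fosb, Jun, Junb, Jund, Atf3, Egr1, Ier2, Nr4a1 and Klf4. They were taken by symbol from the 32287 features of 4 single-cell matrices of mouse aortic smooth muscle cells (SMCs), and each symbol matched 1 row in each matrix. A barcode was kept if it held 1000 or more detected genes and no more than 10% of its unique molecular identifiers (UMIs) were mitochondrial. Of the 21429 kept cells, 8031 belonged to the Arch-GFP library, 6408 to Asc-GFP, 4030 to Asc-RFP and 2960 to Root.

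Droplet-based 3′ RNA sequencing was applied to the aortic arch, the ascending aorta and the aortic root of mice 12 weeks old, with 1 library per group. All groups shared the Wnt1-Cre2 transgene, which makes Cre recombinase in neural crest, and the mT/mG reporter, which switches a cell and its descendants from membrane tdTomato to membrane eGFP once the recombinase has acted. Cells were released with enzymes in the cold and sorted for viability, for the integrin ITGA8 and, depending on the segment, for green or red fluorescence, so eGFP reports neural crest descent only as far as this driver does. Arch-GFP and Asc-GFP are green cells of the arch and of the ascending aorta, Asc-RFP is red cells of the ascending aorta, and the Root label gives no colour. The sources used here give neither the number nor the sex of the animals behind a library.

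Fos and Jun proteins pair through leucine zippers into the dimeric transcription factor AP-1, and Atf3 can join or oppose such dimers. Their genes, with Egr1, Ier2, Nr4a1 and Klf4, belong to the immediate-early class, which growth factors, mechanical load and stress switch on within minutes and without new protein synthesis. In arterial SMCs these factors are known for their response to injury and to stretch, and tissue dissociation itself is known to induce many of them.

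With 1 library per group no test between groups was possible. All intervals are 95% intervals for counting error only and hold no spread between animals. Levels are given as CPM, the UMIs of a gene summed over the kept cells of a library and divided by all their UMIs. Genes whose log2 ratio reached 0.5 in size (1.41-fold) were called higher or lower. The median UMIs per kept cell were 12628, 12974, 13605 and 13226.5 in Arch-GFP, Asc-GFP, Asc-RFP and Root, with median mitochondrial shares between 4.88% and 5.10%. All 12 SMC markers were detected in every library, at a summed 53525, 57332, 61048 and 53049 CPM in the same order. Summed macrophage markers (12 genes, of which 1 was at 0 in Arch-GFP) stood at 2.54, 7.50, 204 and 794 CPM, and the endothelial list (10 genes, of which 3 were at 0 in Arch-GFP) at 37.0, 40.01, 35.1 and 76.5 CPM. Fibroblast markers (10 genes) stood at 219, 132, 280 and 487 CPM, and pericyte markers (6 genes, of which 1 was at 0 in Asc-GFP) ran the other way at 947, 658, 591 and 425 CPM. The part of fibroblast and pericyte signal in the members' values was not tested. Pairs of libraries shared between 4 and 18 barcodes. In bulk sums such as these, fewer cells that express a gene and less RNA per cell cannot be told apart, so shares of cells are given further on.

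Cells of both sexes were present in every library. Cells with a UMI of Xist, which coats the inactive X chromosome, and none of 4 Y-linked genes were called female, and the reverse male. By this rule 1752 cells were female and 4265 male in Arch-GFP, 3689 and 1573 in Asc-GFP, 1875 and 1572 in Asc-RFP, and 2409 and 335 in Root. The female share of these cells was thus 29.1%, 70.1%, 54.4% and 87.8%. Cells with UMIs of both kinds made up 10.2%, 9.47%, 5.26% and 1.93% of the libraries and entered neither sex. Female and male cells of a library come from different animals, so sex and animal cannot be told apart, and values within each sex are given beside the library ratios.

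Promoter sequences were looked up in RefSeq (GRCm38.p6), whose table held 8 of the 10 members, all but Egr1 and Ier2. The letters TGACG, the core of the cAMP response element to which CREB and ATF proteins bind, were searched on both strands in the 250 bases before the annotated start. They were found in 6 of the 8 members (Fos, Fosb, Junb, Atf3, Nr4a1 and Klf4) and in 17.8% of the 32851 promoters of the table. The 120 bases before the start are shown for 5 of those 6, because the motif lies there close to the start, and for Jun as a member of the same family without it. Capitals mark TGACG or, where it lies on the opposite strand, its complement CGTCA.
Fos (chr12:85473770-85473889, plus strand): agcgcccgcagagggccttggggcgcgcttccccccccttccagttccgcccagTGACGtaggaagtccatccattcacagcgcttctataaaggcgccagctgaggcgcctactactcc
Fosb (chr7:19310046-19310165, minus strand): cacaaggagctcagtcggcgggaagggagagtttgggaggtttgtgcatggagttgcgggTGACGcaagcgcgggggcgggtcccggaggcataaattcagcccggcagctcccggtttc
Jun (chr4:95052223-95052342, minus strand): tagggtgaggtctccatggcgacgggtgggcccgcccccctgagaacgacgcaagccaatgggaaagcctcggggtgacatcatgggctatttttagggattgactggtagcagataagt
Junb (chr8:84978749-84978868, minus strand): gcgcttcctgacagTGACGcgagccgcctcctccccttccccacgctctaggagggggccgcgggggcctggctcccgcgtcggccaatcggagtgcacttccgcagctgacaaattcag
Atf3 (chr1:191183334-191183453, minus strand): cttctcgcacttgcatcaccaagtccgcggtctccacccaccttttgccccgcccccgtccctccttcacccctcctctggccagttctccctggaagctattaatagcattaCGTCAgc
Nr4a1 (chr15:101266726-101266845, plus strand): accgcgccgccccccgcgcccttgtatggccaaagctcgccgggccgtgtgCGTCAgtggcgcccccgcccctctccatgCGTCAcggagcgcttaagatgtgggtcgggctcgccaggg

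Counted back from the start, the motif began at base 66 in Fos, 60 in Fosb, 106 in Junb and 7 in Atf3. Nr4a1, which encodes an orphan nuclear receptor, held 4 copies, of which the 2 nearest to the start are shown, Fos a further copy that began at base 129, and Klf4 a single copy that began at base 232. The longer motif TGCGTCA, whose opposite strand contains TGACG, was found in Fosb and at all 4 places in Nr4a1, against 1.75% of all promoters. The full palindrome TGACGTCA (1.55% of promoters), the AP-1 motif TGACTCA (4.46%), the SRF CArG box (1.47%) and the EGR motif GCGTGGGCG (0.536%) had no match in these windows of the 8 members. The windows of Atf3 and Nr4a1 lie inside the gene spans given further on, whose annotated ends are farther upstream. A match describes letters only, and none was read as a site in use.

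The 10 members together stood at 1534 CPM (1526 to 1541) in Arch-GFP and 1659 CPM (1650 to 1667) in Asc-GFP. Asc-RFP had 1788 CPM (1777 to 1799) and Root 2283 CPM (2268 to 2298). The summed level was thus highest in Root and lowest in Arch-GFP, with no overlap between neighbours. In female cells alone the order was the same, whereas in male cells Asc-GFP was lowest, and Arch-GFP over Asc-GFP had a summed log2 ratio of 0.17. Most of the sum came from Jun, Jund and Atf3, at 846, 742 and 298 CPM in Root and 383, 774 and 133 CPM in Arch-GFP. In Arch-GFP over Root, 7 of the 10 were lower (Fos, Fosb, Jun, Junb, Atf3, Egr1 and Ier2) and none was higher. Of the 10003 genes with at least 5 CPM in either of these libraries, 5.94% were lower and 6.12% higher. The members' median log2 ratio was -0.89, against 0.05 over all genes tested. Within one sex the summed ratio of Arch-GFP over Root, -0.57 (-0.59 to -0.56) over all cells, was -0.38 in female and -0.48 in male cells. By the same size 4 members were lower in female cells (Fos, Jun, Junb and Ier2) and 8 in male cells. The share of all genes lower by that size was not counted within one sex, and Root held only 335 male cells.

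**Figure D1:**
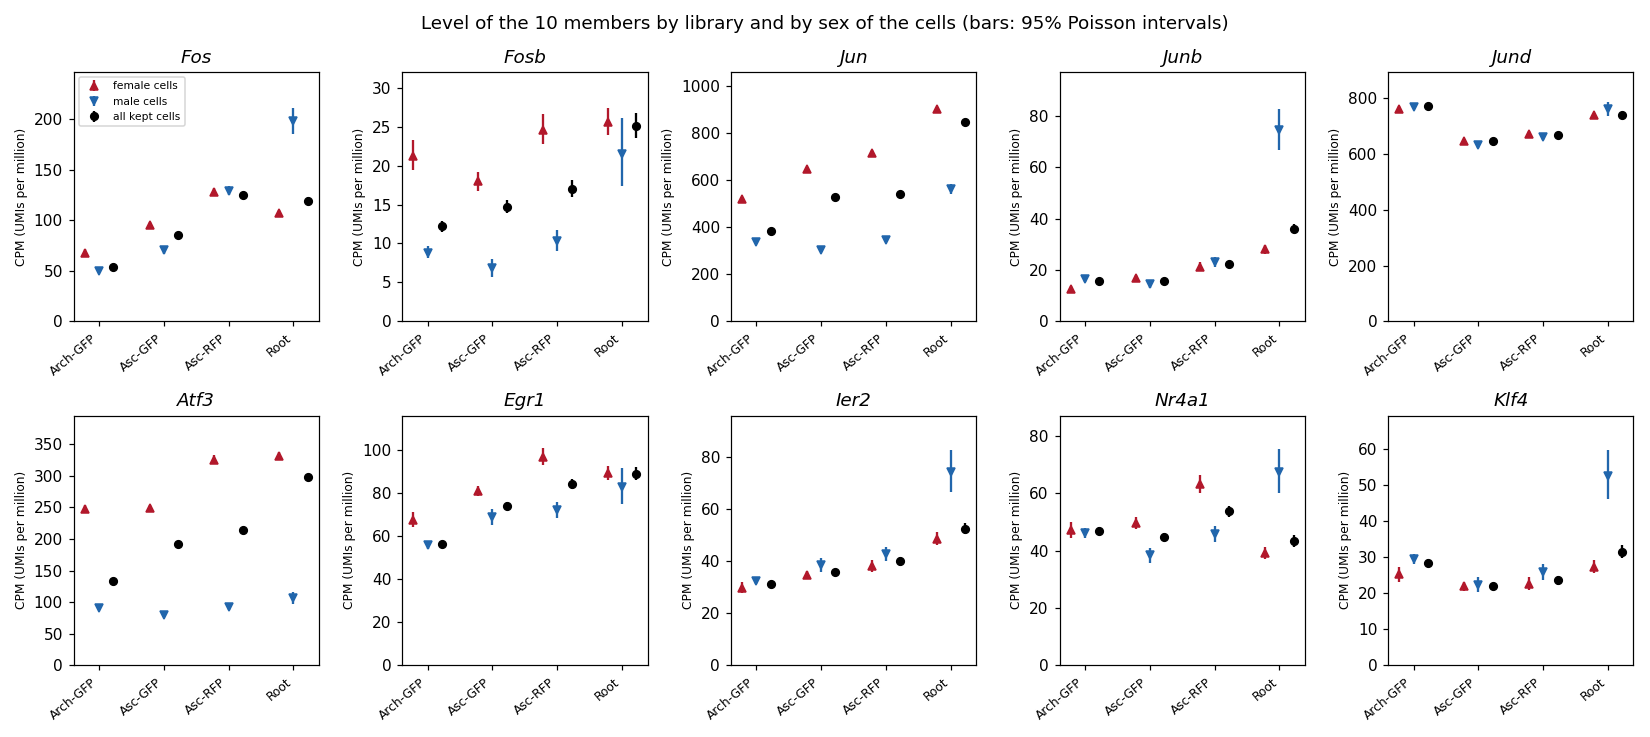
Level of each member (CPM, linear axes from 0, 1 panel per gene) in the 4 libraries, in female cells (red), male cells (blue) and all kept cells (black), with bars for 95% Poisson intervals. The points of Jund lie close together across libraries and sexes, whereas female cells stood above male cells for Atf3 in every library (between 247 and 332 CPM against 79.5 to 106).

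Fos, the partner of Jun in the classical AP-1 dimer (ENSMUSG00000021250, chr12:85473890-85477273, plus strand), had 53.3 CPM in Arch-GFP, 85.0 in Asc-GFP, 125 in Asc-RFP and 119 CPM in Root. The intervals of Asc-RFP and Root overlapped and the green libraries stood below them. The log2 ratio was -1.16 (-1.22 to -1.11) in Arch-GFP over Root, -0.67 (-0.73 to -0.62) in Arch-GFP over Asc-GFP, -0.56 (-0.61 to -0.51) in Asc-GFP over Asc-RFP and 0.07 (0.02 to 0.13) in Asc-RFP over Root. Within one sex the ratio of Arch-GFP over Root was -0.65 in female and -1.99 in male cells, and Root itself held Fos at 107 CPM in female and 198 CPM in male cells. Asc-RFP over Root had opposite signs in the sexes, with 0.26 (0.19 to 0.33) in female and -0.61 (-0.72 to -0.50) in male cells.

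Fosb, a Fos paralogue with similar dimer partners (ENSMUSG00000003545, chr7:19302696-19310051, minus strand), had 12.2 CPM in Arch-GFP, 14.7 in Asc-GFP, 17.03 in Asc-RFP and 25.1 CPM in Root. Over all cells its levels followed the order of the summed members with no overlap. Within either sex, however, Arch-GFP stood above Asc-GFP. The log2 ratio of Arch-GFP over Asc-GFP was 0.25 (0.08 to 0.41) in female and 0.37 (0.10 to 0.65) in male cells. In Arch-GFP over Root the log2 ratio was -1.04 (-1.16 to -0.92), but only -0.27 in female cells and -1.28 in male cells. In Asc-RFP over Root it was -0.56 over all cells, -0.06 in female and -1.06 in male cells.

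Jun, the AP-1 subunit that can also pair with itself (ENSMUSG00000052684, chr4:95049034-95052222, minus strand), had 383 CPM in Arch-GFP, 528 in Asc-GFP, 540 in Asc-RFP and 846 CPM in Root. Over all cells the ascending libraries lay close together, Arch-GFP below them and Root above. In Arch-GFP over Asc-GFP, however, the log2 ratio was -0.32 in female and 0.15 (0.11 to 0.19) in male cells. The log2 ratio was -1.14 (-1.16 to -1.12) in Arch-GFP over Root, with -0.80 in female and -0.75 in male cells. In Asc-RFP over Root it was -0.65 (-0.67 to -0.62), with -0.33 in female and -0.71 in male cells. Jun overlaps the antisense gene Junos, which was counted at no more than 1.34 CPM.

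Junb, a Jun relative that is a weaker activator in many settings (ENSMUSG00000052837, chr8:84974484-84978718, minus strand), had 15.6 CPM in Arch-GFP, 15.6 in Asc-GFP, 22.2 in Asc-RFP and 36.1 CPM in Root. The green libraries did not differ beyond counting error. The log2 ratio of Arch-GFP over Root was -1.21 (-1.31 to -1.10), the lowest of the 10. Other cell types held Junb at high levels. In Root, 102 cells with at least 5 UMIs of macrophage markers held Junb at 243 CPM (214 to 275), and without macrophage-marker and endothelial-marker cells the ratio was -0.92 in Arch-GFP over Root and -0.45 in Asc-RFP over Root, against -0.71 with them. Junb also overlaps Prdx2 on the opposite strand, at 219, 211, 210 and 196 CPM in Arch-GFP, Asc-GFP, Asc-RFP and Root, and the sources used here do not say whether counting used strand.

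Jund, the Jun relative that resting cells keep expressed (ENSMUSG00000071076, chr8:70698949-70700616, plus strand), differed least. It had 774 CPM in Arch-GFP, 647 in Asc-GFP, 668 in Asc-RFP and 742 CPM in Root, a span of 1.20-fold, with Arch-GFP highest. The log2 ratio was 0.06 (0.04 to 0.08) in Arch-GFP over Root and 0.26 (0.24 to 0.27) in Arch-GFP over Asc-GFP, both under the size that counted. Female and male cells of a library lay within 0.05 of each other on the log2 scale.

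Atf3, a stress-induced partner of Jun proteins (ENSMUSG00000026628, chr1:191170296-191218039, minus strand), had 133 CPM in Arch-GFP, 192 in Asc-GFP, 214 in Asc-RFP and 298 CPM in Root. Each step in that order exceeded counting error. The log2 ratio was -1.16 (-1.20 to -1.13) in Arch-GFP over Root and -0.53 (-0.56 to -0.50) in Arch-GFP over Asc-GFP. Within one sex both were smaller in size. Arch-GFP over Root was -0.43 in female and -0.23 in male cells, and Arch-GFP over Asc-GFP was -0.01 in female and 0.19 in male cells, a change of sign.

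Egr1, a zinc-finger factor induced through SRF and ELK proteins (ENSMUSG00000038418, chr18:34859823-34864984, plus strand), had 56.1 CPM in Arch-GFP, 74.0 in Asc-GFP, 84.04 in Asc-RFP and 88.8 CPM in Root. Asc-RFP and Root overlapped. In Arch-GFP over Root the log2 ratio was -0.66 (-0.72 to -0.60), with -0.41 in female and -0.57 in male cells. Ier2, an immediate-early nuclear protein (ENSMUSG00000053560, chr8:84661331-84662852, minus strand), had 31.4 CPM in Arch-GFP, 35.7 in Asc-GFP, 39.97 in Asc-RFP and 52.5 CPM in Root. Its ratio of Arch-GFP over Root was -0.74 (-0.82 to -0.66), and it stayed below -0.5 in both sexes (-0.71 in female and -1.19 in male cells).

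Nr4a1 and Klf4, like Jund, did not follow the order of the summed members. Nr4a1 (ENSMUSG00000023034, chr15:101254269-101274795, plus strand) had 46.9 CPM in Arch-GFP, 44.8 in Asc-GFP, 53.7 in Asc-RFP and 43.4 CPM in Root. Asc-RFP stood above the others, and the intervals of Asc-GFP and Root overlapped. In Asc-RFP over Root its log2 ratio was 0.31 (0.22 to 0.39) over all cells, 0.70 in female cells and -0.56 in male cells. Klf4, a Krüppel-like factor known to repress SMC contractile genes (ENSMUSG00000003032, chr4:55527143-55532466, minus strand), had 28.3 CPM in Arch-GFP, 21.9 in Asc-GFP, 23.6 in Asc-RFP and 31.6 CPM in Root. In Root, 51 cells with endothelial markers held Klf4 at 353 CPM (300 to 412) and the macrophage-marker cells at 153 CPM. Without both kinds of cells the log2 ratio of Arch-GFP over Root was 0.21, against -0.16 with them.

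**Figure D2:**
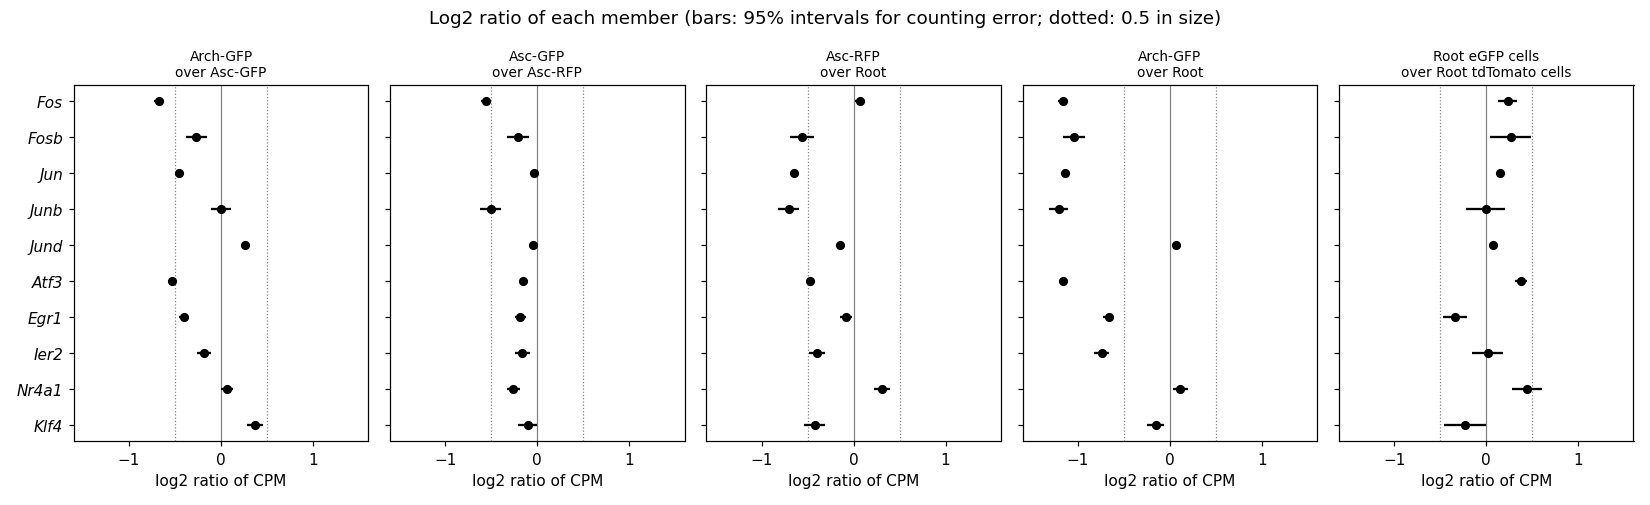
Log2 ratio of CPM of each member (rows) in 5 comparisons (panels), with bars for 95% counting intervals and dotted lines at 0.5 in size. In Arch-GFP over Root 7 members lie left of the dotted line, and between the Root reporter classes none lies outside the lines.

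Neighbouring segments and colours differed less. In Arch-GFP over Asc-GFP, green cells on both sides, 2 of the 10 members were lower (Fos and Atf3) against 0.729% of all genes tested, and none was higher (2.15% of all genes tested). The members' median was -0.23, against 0.03 over all genes tested, and within female or male cells alone no member passed the size. In Asc-GFP over Asc-RFP, the comparison of colours inside the ascending aorta, Fos and Junb were lower (-0.56 and -0.50), against 1.93% of all genes, and none was higher (1.66%). All 10 members lay below 0 there, as did 3975 of the 9711 genes tested, with medians of -0.17 and 0.02. In female cells, and separately in male cells, again 10 of 10 lay below 0. Neither call held in female cells, where Fos was at -0.43 and Junb at -0.32, while male cells gave -0.87 and -0.67. Without macrophage-marker and endothelial-marker cells Junb was at -0.46, under the size, and Klf4 at 0.02. In Asc-RFP over Root, 3 members were lower (Fosb, Jun and Junb) against 5.08% of all genes, and none was higher (2.84%), with medians of -0.41 and -0.01. Without the marker cells Fosb was at -0.49 and only Jun of the 3 passed the size. None was lower by that size in female cells and 7 were in male cells, of which Root held 335. For all 3 comparisons, the shares of all genes past the size or below 0 were not counted within one sex. The comparisons share libraries, so their values are not independent of each other.

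The Root library was split by its own reporter. The 576 cells with at least 8 eGFP and at most 1 tdTomato UMI, and the 1794 cells with at least 2 tdTomato and at most 2 eGFP UMIs, came from 1 library, and 590 cells fell in neither class. Summed over the 10 members, eGFP cells stood at 2519 CPM (2483 to 2555) and tdTomato cells at 2282 (2263 to 2301). No member passed the size in either direction, against 1.68% of all genes higher and 3.74% lower in eGFP cells. The same held in female cells, but in the 64 male eGFP and 220 male tdTomato cells 6 members were higher and 2 lower. Among them were Fosb at 1.42 (0.68 to 2.13), Nr4a1 at 1.05 (0.67 to 1.43) and Egr1 at -1.16 (-1.76 to -0.62). The share of all genes past the size was not counted within one sex, so the male counts have no background beside them. Over all cells of the 2 classes the values were as follows. Nr4a1 had 56.1 CPM in eGFP cells and 41.3 in tdTomato cells, a log2 ratio of 0.44 (0.28 to 0.60). Atf3 had 381 and 293 CPM (0.38, 0.32 to 0.44), Jun 953 and 857 CPM (0.15, 0.11 to 0.19) and Fos 136 and 116 CPM (0.23, 0.13 to 0.33). Egr1 went the other way, with 78.0 CPM in eGFP cells and 98.4 in tdTomato cells (-0.34, -0.47 to -0.21). Klf4 lay on the same side, with 26.5 and 31.1 CPM (-0.23, -0.46 to -0.0076). Junb and Ier2 did not differ beyond counting error. Markers of other cell types were lower in eGFP than in tdTomato cells, with 24.8 and 703 CPM for macrophage, 24.5 and 87.3 CPM for endothelial and 223 and 489 CPM for fibroblast markers. Without macrophage-marker and endothelial-marker cells Klf4 was at 0.15 (-0.084 to 0.39) and Junb at 0.28 (0.060 to 0.49). The female share of sexed cells was 88.2% in eGFP and 87.0% in tdTomato cells.

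Libraries were also set against the Root cells of their own colour, a comparison chosen after the data were seen. Asc-GFP over Root eGFP cells gave 6 lower members of 10 (Fos, Fosb, Jun, Junb, Atf3 and Ier2), against 3.81% of all genes, and none higher (3.98%), with a median of -0.60. Arch-GFP over Root eGFP cells gave the same 6 lower, against 4.82% of all genes, and none higher (7.36%), with Atf3 at -1.52 and Jun at -1.31. Between Arch-GFP and Root eGFP cells, the levels of these 6 lay closer together among female cells than over all cells. Among male cells only those of Atf3 and Jun did. Atf3 had 247 CPM in Arch-GFP and 423 in Root eGFP cells among female cells, and 90.5 and 171 CPM among male cells. Jun had 335 and 583 CPM among male cells. Fos (49.9 and 260 CPM), Fosb (8.83 and 36.4), Junb (16.5 and 90.5) and Ier2 (32.5 and 113) lay farther apart there. Between male cells of Asc-GFP and of Root eGFP, Atf3 (79.5 and 171 CPM) and Jun (302 and 583 CPM) also lay farther apart than over all cells. Root eGFP held only 64 male cells. Asc-RFP over Root tdTomato cells gave 3 lower (Fosb at -0.54, Jun at -0.67 and Junb at -0.56), against 5.16% of all genes, and none higher (2.94%). Among female cells all 3 were under the size. Their CPM there were 24.6 and 26.0 for Fosb, 717 and 913 for Jun, and 21.2 and 25.9 for Junb. Among male cells they were 10.3 and 13.6, 344 and 566, and 23.0 and 60.1. Without macrophage-marker and endothelial-marker cells, Root tdTomato cells held Junb at 26.8 CPM, against 32.6 with them. Root cells of either colour thus held more summed member UMIs than ascending cells of that colour.

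Female cells were set against male cells inside each library. Atf3 had 247 CPM in female and 90.5 in male cells of Arch-GFP, 249 and 79.5 in Asc-GFP, 326 and 92.1 in Asc-RFP, and 332 and 106 in Root. The log2 ratio of female over male cells was 1.45 (1.39 to 1.50), 1.65 (1.57 to 1.72), 1.82 (1.75 to 1.89) and 1.65 (1.52 to 1.78), so even the lowest female value was above the highest male one. The ratio of Atf3 farthest from 0 between whole libraries was -1.16. Jun had ratios of 0.63, 1.10, 1.06 and 0.68 in the same order of libraries, all past the size. For Fosb they were 1.27, 1.40 and 1.26 in Arch-GFP, Asc-GFP and Asc-RFP, with 21.3, 18.0 and 24.6 CPM in female against 8.83, 6.82 and 10.3 CPM in male cells. In Root the Fosb ratio was 0.25 (-0.05 to 0.57), and 0.55 (0.20 to 0.92) without macrophage-marker and endothelial-marker cells.

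Counted over the members, 3 of 10 were higher in female cells of Arch-GFP (2.46% of all genes), of Asc-GFP (1.73%) and of Asc-RFP (2.07%), and 2 of 10 in Root (4.69%). None was lower in Arch-GFP (1.71% of all genes), Asc-GFP (0.683%) or Asc-RFP (0.823%). In Root 5 were lower in female cells (8.18% of all genes), namely Fos at -0.89, Junb at -1.41, Ier2 at -0.61, Nr4a1 at -0.79 and Klf4 at -0.94. Part of the Root values moved with other cell types. Macrophage-marker or endothelial-marker cells made up 30 of Root's 335 male and 78 of its 2409 female cells, and without them Fos stood at -0.72, Junb at -1.15, Nr4a1 at -0.79, Ier2 at -0.40 and Klf4 at -0.29. The sum of the 12 SMC markers lay slightly lower in female cells throughout, with log2 ratios from -0.12 to -0.07. Hspa1a, the inducible heat shock protein 70, was higher in female cells of all 4 libraries (0.64, 0.89, 1.20 and 0.79), while the summed heat shock list lay between -0.16 and 0.23.

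To compare shares of cells, each cell was thinned to 5000 UMIs, which left out 1233 cells of Arch-GFP, 493 of Asc-GFP, 469 of Asc-RFP and 167 cells of Root. Jun was detected in 72.0% of cells in Arch-GFP, 75.0% in Asc-GFP, 73.6% in Asc-RFP and 81.7% of cells in Root (87.8%, 90.4%, 89.0% and 92.1% unthinned). Cells with at least 5 Jun UMIs differed more widely, with 9.33% in Arch-GFP, 16.8% in Asc-GFP, 16.5% in Asc-RFP and 30.4% of cells in Root. The share of cells with any Jun UMI was high in every library, which left it less room to differ than the share with 5 or more. Atf3 was detected in 28.3%, 32.9%, 29.8% and 38.8% of thinned cells in that order (45.04%, 49.3%, 45.5% and 53.1% unthinned), and at 5 or more UMIs in 3.09%, 4.84%, 6.04% and 8.84%. Fos was detected in 12.5%, 15.2%, 19.9% and 19.9% (20.4%, 25.4%, 30.6% and 31.5% unthinned).

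Fosb was found in 2.87% of thinned cells in Arch-GFP, 2.94% in Asc-GFP, 2.89% in Asc-RFP and 6.30% of cells in Root (5.20%, 5.18%, 4.71% and 11.3% unthinned), so Root alone stood apart beyond counting error. By sex the thinned shares were 4.29%, 3.21%, 4.30% and 6.44% in female and 2.11%, 2.17%, 1.49% and 5.35% in male cells. Jund was found in 95.5% of Arch-GFP cells and in 91.6% to 92.7% of the other libraries. Junb was found in 5.85% to 9.99%, Egr1 in 10.4% to 13.3%, Ier2 in 13.4% to 19.3%, Nr4a1 in 13.7% to 17.2% and Klf4 in 8.01% to 10.96% of thinned cells. Free RNA was not removed, and since no cell type is known to lack these genes, its part in the shares was not tested.

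The members were not spread evenly over cells. The median thinned cell held 6 member UMIs in Arch-GFP, 6 in Asc-GFP, 6 in Asc-RFP and 8 such UMIs in Root, while the 10% of cells with most held 27.7%, 33.0%, 34.8% and 32.1% of all member UMIs. The variance of the summed UMIs was 5.06, 9.47, 10.8 and 9.85 times the mean. Cells with 7 or more of the 10 members made up 1.52% (1.24 to 1.83) of Arch-GFP and 1.76% (1.44 to 2.13) of Asc-GFP. They were 2.58% (2.09 to 3.16) of Asc-RFP and 3.22% (2.60 to 3.95) of Root. If the members had been detected independently at the observed shares, these would have been 0.0638%, 0.0741%, 0.112% and 0.230%. By sex, such cells were 2.51% of female and 1.22% of male cells in Arch-GFP, 2.11% and 1.05% in Asc-GFP, 3.59% and 1.90% in Asc-RFP, and 2.63% and 6.60% in Root.

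**Figure D3:**
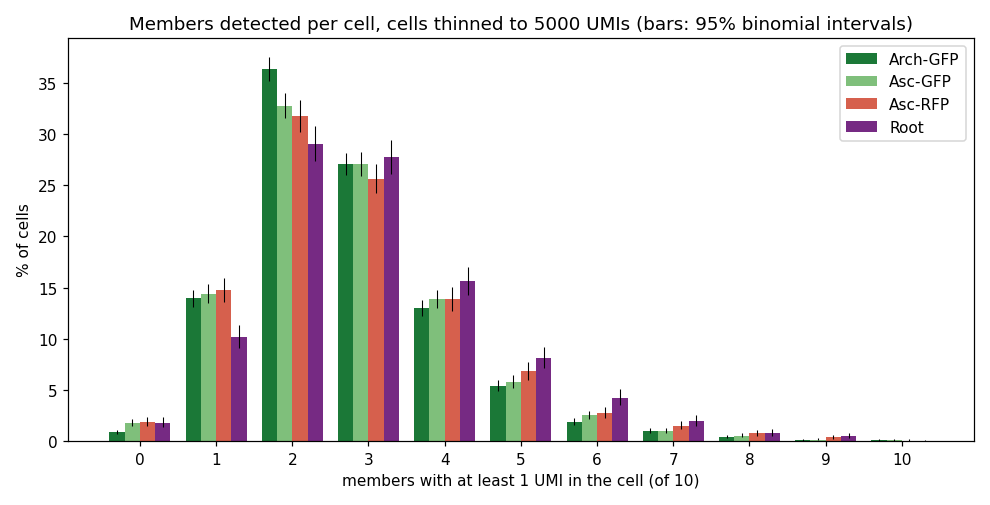
Share of cells (%) by the number of the 10 members with at least 1 UMI, in cells thinned to 5000 UMIs, for the 4 libraries, with bars for 95% binomial intervals. The commonest number was 2 in every library, and a tail of cells with 7 or more reached 1.52% in Arch-GFP and 3.22% in Root.

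Detection of 2 members in the same cell was compared with the product of their shares. Over the 45 pairs the median ratio of observed to expected cells was 1.33 in Arch-GFP, 1.39 in Asc-GFP, 1.43 in Asc-RFP and a lower 1.27 in Root, and 41, 44, 44 and 43 pairs lay above 1. The strongest pair was Fosb with Egr1 in 3 libraries, at 3.47 (2.70 to 4.38) in Arch-GFP, 3.73 (2.98 to 4.62) in Asc-GFP and 4.68 (3.60 to 5.97) in Asc-RFP. The same pair gave 3.01 (2.34 to 3.82) in Root. In Root the strongest pair was Fosb with Junb, at 3.19. Fos with Egr1 lay between 2.35 and 2.79 and Junb with Egr1 between 2.55 and 2.99. Jun with Junb showed no excess, at 0.963, 0.964, 1.004 and 1.001, although both encode Jun-family proteins. Ratios of genes detected in most cells, such as Jun and Jund, are bounded near 1.

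**Figure D4:**
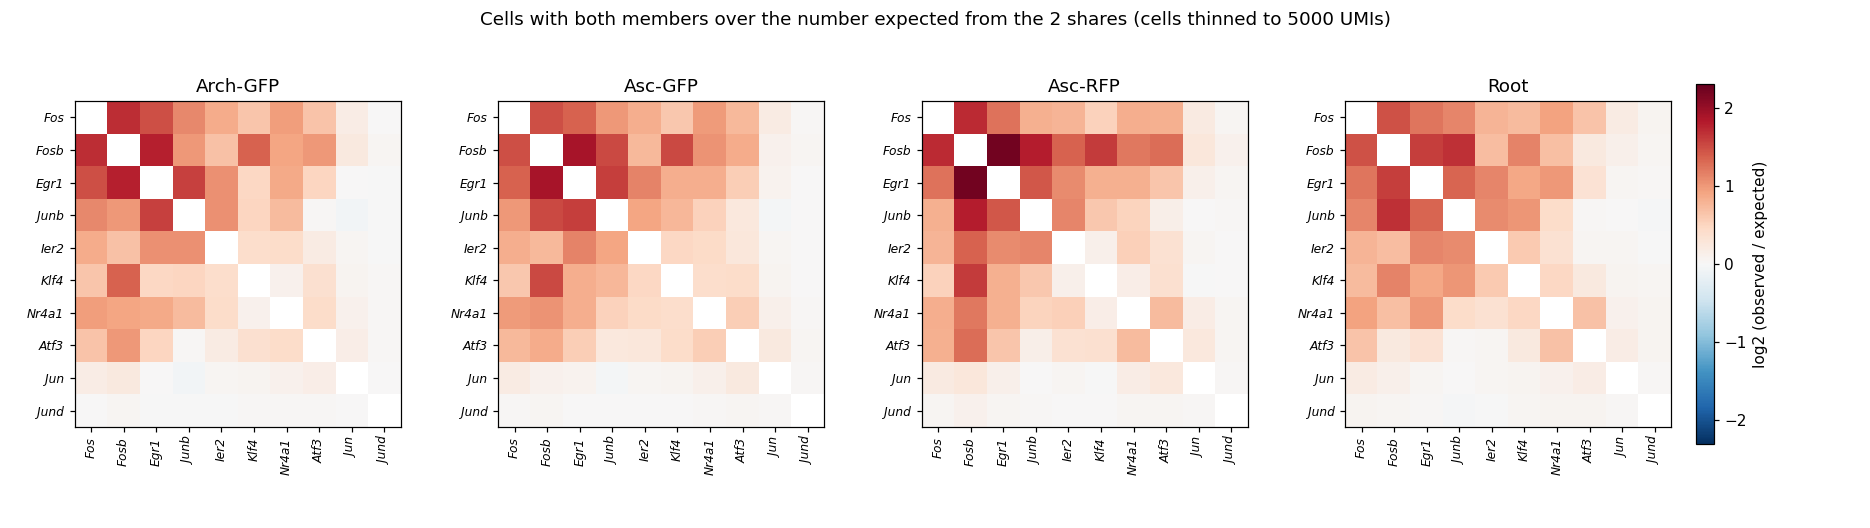
Log2 of observed over expected cells with both members, for each pair of the 10 members (rows and columns) in the 4 libraries, in cells thinned to 5000 UMIs. Pairs among Fos, Fosb, Egr1 and Junb are among the darkest red in each library, while the rows of Jun and Jund stay near 0.

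Levels per cell separated the members in another way. Over thinned cells (6798, 5915, 3561 and 2793), the Pearson correlation of log-scaled Jun with Atf3 was 0.28 in Arch-GFP, 0.42 in Asc-GFP, 0.45 in Asc-RFP and r of 0.47 in Root, whereas that of Jun with Junb lay between -0.0027 and 0.045. Cells of a library share its dissection and sort, so these values describe the libraries and carry no test. Female and male cells, which come from different animals, were pooled in the correlations and in the co-detection ratios. Atf3, Jun, Hspa1a and Ccn1 were all higher in female cells of every library. The part of this difference in the correlations and ratios was not tested. Of 5330 other genes with at least 20 CPM in all 4 libraries, those most like the summed members included Hspa1a (r of 0.34 in Arch-GFP, 0.47 in Asc-GFP, 0.47 in Asc-RFP and r of 0.55 in Root), Ccn1 (0.33, 0.45, 0.49 and 0.51), Hspa1b, Hspb1, Btg2, Hsp90aa1, Hspa8, Dnajb4, Dnajb1 and Dnaja1. Of those named, all but Ccn1 and Btg2 belong to the heat shock list. Carmn, Ahnak, Gm42418, Rpl37a and Lars2, at the other end, lay between -0.17 and -0.065, and the median over all 5330 genes was -0.0048.

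Split by member, this likeness was highest for Atf3, Jun and Jund. Against the 14 heat shock genes summed, Atf3 had r of 0.38, 0.47, 0.52 and 0.60 in Arch-GFP, Asc-GFP, Asc-RFP and Root, Jun 0.27, 0.42, 0.45 and 0.53, and Jund 0.18, 0.23, 0.25 and 0.34. Fos, Fosb, Egr1 and Nr4a1 lay between 0.023 and 0.24. Junb, Ier2 and Klf4 stayed between -0.088 and 0.072. Each of Atf3, Jun and Jund had its highest value in Root. The summed mitochondrial UMIs gave -0.13 to -0.041 with the summed members, and the SMC markers 0.0041 to 0.066.

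**Figure D5:**
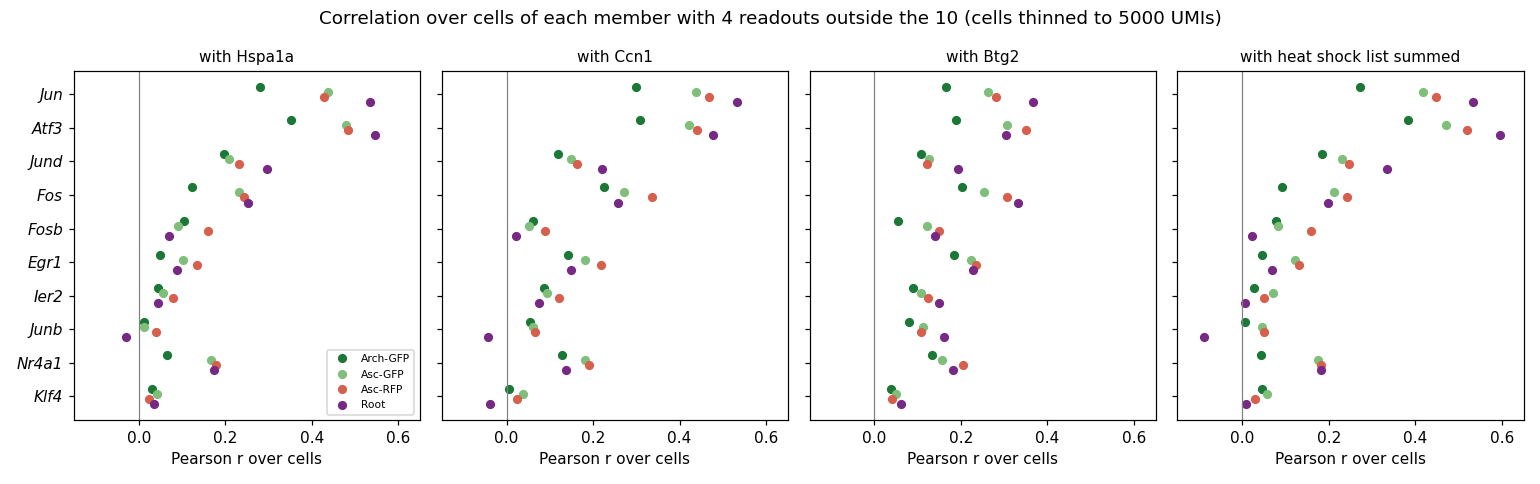
Pearson r over cells thinned to 5000 UMIs between each member (rows) and Hspa1a, Ccn1, Btg2 or the summed heat shock list (panels), with 1 point per library. Atf3 and Jun lie farthest right against the heat shock list, up to 0.60 and 0.53 in Root, while Junb, Ier2 and Klf4 stay near 0.

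Other genes of the response were read in Arch-GFP over Root, where 5.94% of all genes tested were lower and 6.12% higher. Of 10 measured bZIP relatives outside the 10 members, 2 were lower, among them Maf at -2.20, none was higher, and the median was -0.12. Fosl2, a Fos relative, stood at 60.0 CPM in Arch-GFP, 58.7 in Asc-GFP, 58.4 in Asc-RFP and 69.2 CPM in Root. Maf is also a macrophage factor, and the summed macrophage markers were lower in Arch-GFP than in Root, as given above. Their part in this ratio was not tested. Of 21 other immediate-early genes, 7 were lower and 3 higher, with a median of -0.04. Ccn1, a matrix protein gene downstream of YAP and SRF, had 419 CPM in Arch-GFP, 600 in Asc-GFP, 631 in Asc-RFP and 794 CPM in Root, and Ier3 went the other way with 67.3, 64.0, 41.8 and 38.0 CPM. Among female cells Ccn1 had 630 CPM in Arch-GFP and 856 in Root, and among male cells 340 and 458 CPM, under the size in both sexes. Thbs1, which encodes thrombospondin 1, had 2.24 CPM in Arch-GFP and 31.0 in Root.

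Among feedback regulators, which switch the response off again, 2 of 12 were lower and none higher. Btg2, an antiproliferative gene, had 117 CPM in Arch-GFP and 231 in Root, and Spry4, a MAP kinase inhibitor, had a log2 ratio of -1.15. All 18 measured SRF, CREB and MAP kinase genes upstream of the members lay within the size, with Myocd, the SMC coactivator of SRF, at 98.4 CPM in Arch-GFP and 123 in Root. Of 14 heat shock genes 2 were lower, Hspa1a (607 and 877 CPM, -0.53) and Hspa1b (341 and 532 CPM, -0.64). Hspa1a was under the size within each sex, with 815 CPM in Arch-GFP and 938 in Root among female cells and 525 and 544 CPM among male cells. The other genes of these lists were not split by sex. Among measured genes often listed as AP-1 targets, Vcam1 and Mmp3 were lower. Plaur, the urokinase receptor, was higher at 9.04 CPM in Arch-GFP and 2.17 in Root, as was Timp1 at 21.8 and 10.4 CPM. All 7 measured genes of the Krüppel-like and Sp list, which leaves out the member Klf4, lay within the size. Klf2, a Krüppel-like gene kept in the other immediate-early list, was lower at 40.1 CPM in Arch-GFP and 77.3 in Root (-0.95).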

How the data were processed

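The deposited matrices hold UMI counts per gene and barcode, whole numbers made with Cell Ranger 7.0.0 per the file headers. The submitters' processing notes name mm10 and Seurat 4.3, whose output was not used here. Libraries were made with the Chromium 3′ kit v3.1, per the labels' protocols. Gene positions are those of GENCODE on mm10. Members, gene lists and comparisons were chosen with earlier results of these data known. UMIs were summed over kept cells, with exact Poisson intervals for CPM, exact conditional binomial intervals for ratios and exact binomial intervals for shares. Doublets and free RNA were not removed. The deposited barcodes numbered 10506, 8845, 6539 and 4040 in Arch-GFP, Asc-GFP, Asc-RFP and Root, where the submitters state 4710, 4050, 2450 and 1841 cells after their filter. All 10 members were described. From each other list up to 4 genes with at least 5 CPM and the largest ratio of Arch-GFP over Root could be named (Fosl2 and Timp1 were named after their values were seen), and the 12 most and 6 least alike genes were ranked by r over thinned cells. Some of these genes are left unreported. Interval code was tested on simulated data. Python 3.11.15, numpy 2.4.6, scipy 1.17.1, pandas 2.3.3 and matplotlib 3.10.9 were used.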

Additional observations from a re-analysis of the deposited data

Results flagged for a closer look

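Between the reporter colours, 7 members lay on opposite sides of 0 in the 2 places where both colours were present, 6 of them with counting intervals clear of 0 in both, and this difference was not tested. The share of all genes on opposite sides was not counted. For genes with many UMIs, such as Jun and Jund, these intervals exclude 0 even at small ratios. Fos had a log2 ratio of 0.23 in eGFP over tdTomato cells of Root and of -0.56 in Asc-GFP over Asc-RFP, and Nr4a1 had 0.44 and -0.26. Atf3 had 0.38 and -0.15, Fosb 0.27 and -0.21, Jun 0.15 and -0.033, and Jund 0.071 and -0.047. The other one, Ier2, had 0.017 and -0.16, with an interval in Root from -0.15 to 0.18. Asc-GFP and Asc-RFP held 70.1% and 54.4% female cells, and within either sex all 10 members lay below 0 there.

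Barcodes that the filter left out also held UMIs of the members. Their summed level was 984, 958, 1244 and 1414 CPM in Arch-GFP, Asc-GFP, Asc-RFP and Root, below that of the kept cells in each library.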

How the results depend on the processing

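No paired analysis was possible because each group is 1 library. Of 14 calls of a member, 119 of 140 repeats under 10 alternatives kept the size and sign, 1 reversed (Atf3 in Arch-GFP over Asc-GFP, 0.19 in male cells), and 23 uncalled values passed the size. For Arch-GFP over Root the summed log2 ratio was -0.52 with every cell weighing the same, -0.62 scaled by the median gene, -0.59 without mitochondrial and ribosomal protein genes, -0.50 at no more than 5% mitochondrial UMIs, -0.38 in female cells, -0.48 in male cells and -0.54 thinned. For Arch-GFP over Asc-GFP, -0.11, it was -0.084 with every cell weighing the same, -0.14 scaled by the median gene, -0.049 in female cells, 0.17 in male cells and -0.095 thinned. For Asc-GFP over Asc-RFP, -0.11, it was -0.085 with every cell weighing the same, -0.13 scaled by the median gene, -0.049 at no more than 5% mitochondrial UMIs, -0.18 in female cells, -0.18 in male cells and -0.080 thinned. For Asc-RFP over Root, -0.35, it was -0.34 without macrophage-marker and endothelial-marker cells, -0.15 in female and -0.47 in male cells. For the Root reporter classes, 0.14, it was 0.20 at no more than 5% mitochondrial UMIs, 0.24 in male cells, 0.081 thinned, 0.20 with a looser reporter rule and 0.19 for eGFP cells against all others. Alternatives for sex were chosen after the data were seen: female over male cells of Asc-GFP gave 0.51 thinned (0.55 unthinned), and Root 0.32 without the marker cells (0.22 with them). The cause was not tested. The lowest members had 919 to 1238 UMIs per library, which sets the width of their intervals.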

Other observations

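Some genes outside the 10 members also differed between colours or sexes. Thbs1 stood at 48.6 CPM in eGFP and 24.0 CPM in tdTomato cells of Root, while Klf2, a flow-responsive factor named here after its values were seen, stood at 49.2 and 75.8 CPM. Summed endothelial markers (24.5 and 87.3 CPM) and macrophage markers (24.8 and 703 CPM) were also lower in eGFP cells, and their part in the values of Klf2 was not tested. Ccn1 was higher in female than in male cells of every library, with log2 ratios of 0.89 in Arch-GFP, 1.21 in Asc-GFP, 0.88 in Asc-RFP and a ratio of 0.90 in Root.

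The variance of Egr1 over thinned cells was 5.83 times its mean in Arch-GFP, a value above that of 99.8% of 5714 genes. For Jund, detected in most cells, it was 1.64 times the mean in the same library.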
